A study of Mus musculus with 4 samples.

Results

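The mouse Zfp genes with a number from 300 to 999 in their symbol, among them Zfp322a, were followed across a knock-down of Zfp322a itself. They were chosen by name: probe sets whose single gene symbol in the array annotation is Zfp with such a number and an optional letter, leaving out Zfp352. The rule gave 420 of 45037 probe sets, which stood for 233 of 18193 genes. Of these genes 117 had 1 probe set and 116 had more, up to 7. No probe set was left out for low signal, so every member was tested.

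Most proteins of this naming series carry tandem Krüppel-type zinc fingers, short loops held by a zinc ion, each of which can read a few bases of DNA. Many of them also hold a KRAB domain, which recruits the co-repressor Trim28 and, with it, the histone methyltransferase Setdb1, heterochromatin proteins and DNA methylation. In mouse ES cells this system silences endogenous retroviruses and guards imprinted loci, and its genes lie in clusters of recent duplicates.

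The 4 samples were of E14, a mouse ES cell line kept in serum with LIF, the cytokine that holds these cells undifferentiated. All were transfected by lipofection, and the labels give a puromycin selection of 3 days. The 2 control RNAi samples carried the pSuper.puro vector as mock RNAi, and the 2 Zfp322a RNAi samples carried an shRNA against Zfp322a. The labels do not say which shRNA was used, or whether samples of a group came from separate transfections. The spread behind every p-value is therefore that between these samples and may be technical. Total RNA was read on Affymetrix Mouse Genome MG430 2.0 arrays, 1 per sample. Values are RMA levels, which are background-corrected, quantile-normalised intensities on the log2 scale, so that a difference of 1 is a doubling.

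The arrays of a group correlated at 0.998 over all probe sets, and arrays across groups at 0.989 to 0.990. ES cell markers, each read by its brightest probe set, were bright: 9 of 9 had control means between 10.28 and 14.29. Upon Zfp322a depletion Esrrb, Tdgf1 and Utf1 fell, by 0.41, 0.59 and 0.65 on the log2 scale. The other 6 of the 9 did not pass the test at that probe set. Their changes were -0.055 for Pou5f1 and for Klf4, -0.025 for Nanog, 0.015 for Sox2, 0.06 for Zfp42 and -0.16 for Dppa5a. A dimmer probe set of 1 of these 6, Klf4, fell by 0.45 on the log2 scale. Summed over the 9 genes, the log2 levels were 111.47 to 111.79 in the control and 109.72 to 109.80 in the knock-down samples. Fibroblast markers had control means between 3.85 and 7.27, and 1 of 7, Thy1, fell. Their summed level was 35.87 to 36.64 in the control and 35.00 to 35.34 in the knock-down samples. The part of a shift in cell types in the results below was not tested, and in bulk RNA fewer cells of a type and less RNA per cell cannot be told apart.

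Knock-down of Zfp322a is read first, since it checks the labels. The study designed a pair of hairpins against the gene, shown here because the knock-down rests on this design; the labels do not tie either to a sample. The sense arm of 19 bases is in capitals, followed by the loop of 9 bases and the antisense arm, which was the exact reverse complement of the sense arm in both.
shRNA-1: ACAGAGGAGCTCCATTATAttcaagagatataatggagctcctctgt
shRNA-2: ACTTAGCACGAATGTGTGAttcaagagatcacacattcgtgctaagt

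Both probe sets of Zfp322a fell in both knock-down samples. Probe set 1439035_at read 8.75 and 8.84 in the control samples, and in the knock-down samples 7.53 and 7.13. Its change was -1.47 ± 0.14 on the log2 scale (SE, n = 2 per group), which left 36.2% of the control level (limma, adjusted p = 0.00220). Probe set 1452374_at read 8.82 and 8.89 in the control and 7.08 and 6.89 in the knock-down. The change there was -1.87, leaving 27.4% of the control level (limma, adjusted p = 9.35e-04). The control and knock-down samples did not overlap at either probe set, and Zfp322a RNAi replicate 2 was the lower of the pair at both. These were the largest falls among the 420 probe sets.

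Beyond Zfp322a, the family moved more often upwards than downwards. By limma, 85 of 420 probe sets rose (20.2%) and 31 fell (7.38%), while 304 did not pass at an adjusted p of 0.05. Over all 45037 probe sets 10.6% rose and 9.47% fell. Among the 34945 probe sets with a single gene symbol, as all members have, 11.8% rose and 10.6% fell. The median change of the members was 0.06, with the middle 50% between -0.11 and 0.28, beside a median of -0.03 over all probe sets. Without Zfp322a the counts were 85 higher and 29 lower. Leaving out any 1 of the 4 arrays left 0 member probe sets past the adjusted p in limma, and 77 to 114 higher (18.3% to 27.1%) and 39 to 44 lower (9.29% to 10.5%) at an unadjusted p under 0.05. At that unadjusted p, 11.7% to 12.9% of all probe sets were higher and 11.8% to 13.2% lower. The family was not tested as one set.

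**Figure D1:**
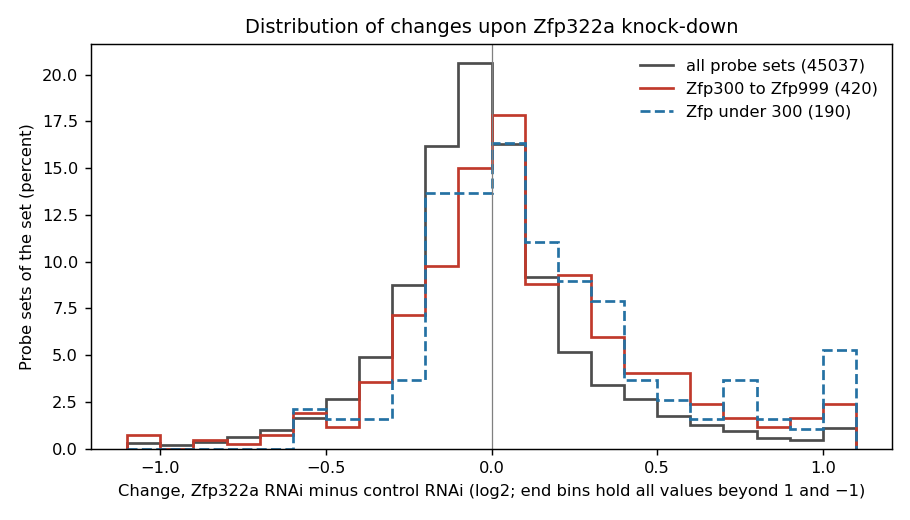
Share of probe sets (y, percent) by log2 change between Zfp322a RNAi and control RNAi (x, bins of 0.1) for the 420 member probe sets, the 190 probe sets of Zfp genes numbered under 300, and all 45037. The member curve lies to the right of the curve for all probe sets, with medians of 0.06 and -0.03.

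Other ways to count gave the same order. Taking each gene once, by its brightest probe set and in a fit over 18193 genes, 67 of 233 genes rose (28.8%) and 21 fell (9.01%), where 14% of all genes rose and 14.4% fell. The median change over genes was 0.10, and over all genes it was -0.04. With a plain limit of 1.5-fold and no test, 41 member probe sets were higher (9.76%) and 13 lower (3.10%). That limit took 4.67% of all probe sets as higher and 2.64% as lower. Both knock-down arrays lay above both control arrays at 165 member probe sets (39.3%) and below them at 102 (24.3%), where 25.1% and 32.4% of all probe sets did so.

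The members were somewhat brighter than the array at large, which bears on how many could pass a test. Median levels of the 420 probe sets on the control arrays were 6.73 and 6.78, and those of all probe sets were 6.11 and 6.10. On the knock-down arrays the members stood at 6.86 and 6.79 and all probe sets at 6.07 and 6.08. Among the 260 members at or above the median level of the array, 25.4% rose and 10% fell, where 17.3% and 15.6% of all probe sets at that level did. Under the median level 11.9% of 160 members rose and 3.13% fell, beside 3.88% and 3.33% of all such probe sets. So rises outnumbered falls among dim and bright members alike. Zfp322a RNAi replicate 1 read above replicate 2 at 58.1% of member probe sets and at 46.1% of all. Among the members that rose it did so at 67 of 85 (78.8%), and among all probe sets that rose at 68.2%. The part of this array difference in the result was not tested.

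**Figure D2:**
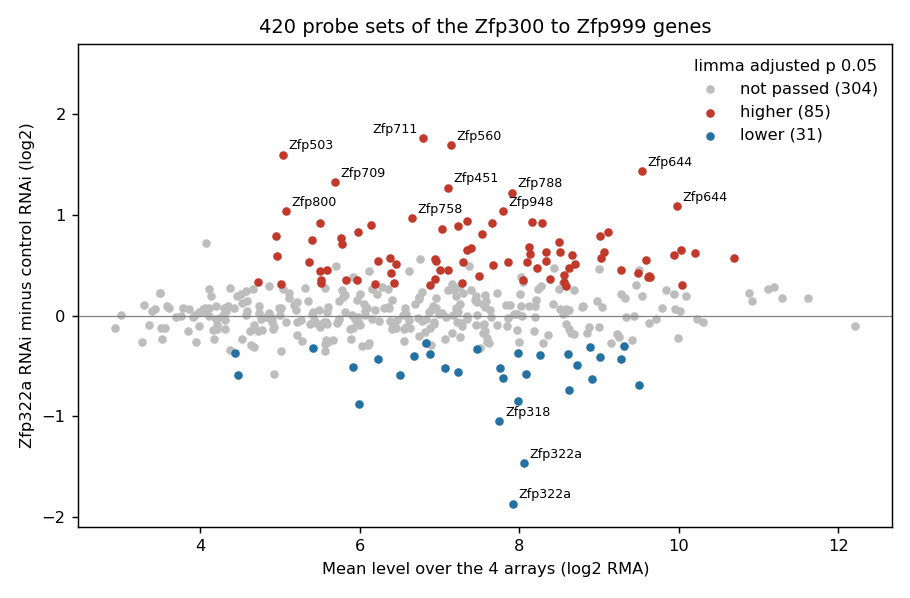
Mean level over the 4 arrays (x, log2 RMA) against the log2 change upon Zfp322a knock-down (y) for each of the 420 member probe sets, coloured by the limma call at an adjusted p of 0.05. Rises (85) occur over most of the signal range, and both Zfp322a probe sets lie below the others.

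Zfp genes numbered under 300 showed the same kind of split, given here side by side and with no test between the families. Of their 190 probe sets for 95 genes, 47 rose (24.7%) and 7 fell (3.68%), with a median change of 0.09. Within the members, the share that rose ran from 12.2% of the 49 probe sets numbered 800 to 899 to 25% of the 44 numbered 400 to 499 and of the 72 numbered 600 to 699. Falls lay between 4.17% and 11.7% of probe sets in each such span of numbers.

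The largest rise by a gene's brightest probe set was that of Zfp711, which binds promoters and is known for recruiting the histone demethylase Phf8. It read 5.99 and 5.84 in the control and 7.77 and 7.59 in the knock-down, a change of 1.77 ± 0.10 or 3.40-fold (limma, adjusted p = 0.00105). A second and dim probe set of Zfp711, between 3.11 and 3.43 on the 4 arrays, did not pass (-0.26, limma, adjusted p = 0.0672).
Zfp709 rose from 4.95 and 5.10 to 6.51 and 6.19, or 2.51-fold. Its dimmer probe set had a change of 0.265 and did not pass.
Zfp788 rose from 7.49 and 7.10 to 8.67 and 8.36, or 2.33-fold. Its dimmer probe set had a change of -0.01 and did not pass.
Zfp644, a partner of the G9a and GLP histone methyltransferases, rose at its brightest probe set from 9.53 and 9.32 to 10.58 and 10.45, or 2.13-fold. It was the brightest of the large rises, and 5 of its 6 probe sets rose, by 0.40 to 1.44 on the log2 scale.

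The other 6 of the 10 largest rises lay within a narrow range. Zfp948 read 7.28 and 7.26 in the control and 8.43 and 8.19 in the knock-down, a change of 1.04. Its dimmer probe set had a change of -0.31 and did not pass. Zfp758 went from 5.98 and 6.35 to 7.16 and 7.11, a change of 0.97. Zfp654 followed with 0.94, Zfp606 and Zfp868 with 0.93 each, and Zfp869 with 0.91. The dimmer probe sets of Zfp606 had changes of -0.015 and -0.065 and did not pass. None of the 10 overlapped between groups, as the rule for naming them required. Adjusted p-values of the 10 ran from 0.00105 to 0.00541 in limma. Most of these genes encode zinc finger proteins that are little described.

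Falls were fewer and smaller. After Zfp322a, the largest was that of Zfp692, which read 8.90 and 9.10 in the control and 8.18 and 8.33 in the knock-down, a change of -0.75 or 59.7% of control (limma, adjusted p = 0.00591). Zfp934 went from 9.18 and 9.27 to 8.70 and 8.48, a change of -0.64. Zfp536, known as a repressor of neuronal differentiation, went from 6.74 and 6.86 to 6.08 and 6.33, a change of -0.60. The list went on with Zfp414 at -0.59, Zfp882 at -0.57 and Zfp593, a factor of ribosome assembly, at -0.50. Zfp553 fell by 0.44, Zfp775 by 0.43 and Zfp668, which is linked to DNA repair, by 0.41 on the log2 scale. Adjusted p-values of these falls ran up to 0.0234 in limma. Dimmer probe sets of Zfp934, Zfp536, Zfp882 and Zfp668 had changes of -0.1, -0.115, 0.035 and 0.01 and did not pass. That of Zfp593 went the other way, from 6.92 and 7.07 to 7.45 and 7.17, a change of 0.315 that did not pass. Past Zfp322a, no member gene fell by 2-fold at its brightest probe set.

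**Figure D3:**
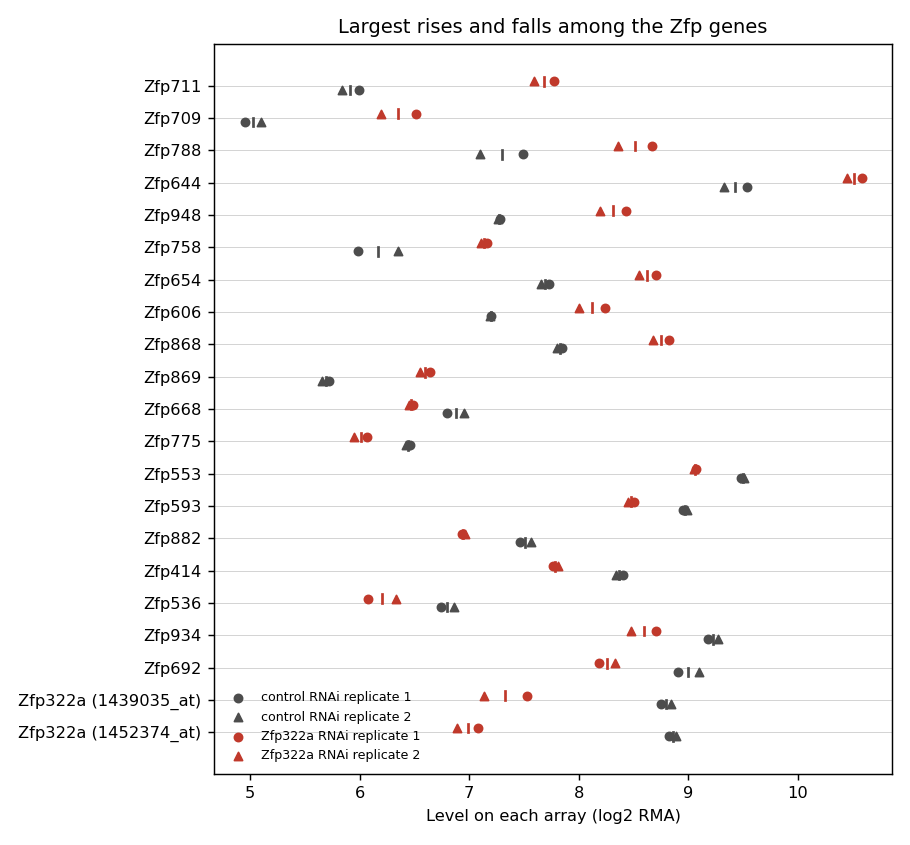
Level on each array (x, log2 RMA) of the 10 genes with the largest rises and the 10 with the largest falls by their brightest probe set, with the second Zfp322a probe set. Grey marks are control RNAi, red marks Zfp322a RNAi, circles replicate 1, triangles replicate 2 and ticks group means; the groups do not overlap in any row.

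In the fit over probe sets, 59 genes rose (25.3%) and 14 fell (6.01%) at their brightest probe set, where 12.2% of all 18193 genes rose and 11.5% fell. The 49 rises outside the 10 largest lay between 0.29 and 0.90 on the log2 scale with a median of 0.53. The 4 remaining falls, named here after their values were seen, were Zfp839 (-0.38), Zfp612 (-0.37), Zfp397 (-0.34) and Zfp341 (-0.28). At the other 160 genes, the change lay between -0.33 and 0.56 with a median of 0.04, and the test was not passed.

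Genes with a known role were looked at by what they do. By brightest probe set 25.3% of member genes rose and 6.01% fell, and 12.2% and 11.5% of all genes. The few genes of each role were not compared with these shares by a test. Among 8 chromatin genes, Zfp711, Zfp644 and Zfp410 rose and the other 5 did not pass at their brightest probe set. Zfp410 is known for its dedication to a single target, Chd4, the helicase of the NuRD complex. Its level rose from 9.74 and 9.65 to 10.39 and 10.30, a change of 0.65 (limma, adjusted p = 0.00459). Chd4 itself, by its brightest probe set, read 10.62 and 10.76 in the control and 10.27 and 10.24 in the knock-down, a change of -0.44 (limma, adjusted p = 0.0173). A dimmer one of its 3 probe sets fell by 0.55 on the log2 scale, and the remaining one had a change of -0.24 and did not pass. The pair thus moved in opposite directions. Zfp687 and Zfp592, both partners of the chromatin reader Zmynd8, had changes of -0.33 and 0.02. For Zfp335, which acts with histone H3 methyltransferases, the change was 0.02, and for Zfp827, a recruiter of NuRD, it was -0.05.

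Among 4 KRAB repressors with known targets, none passed at its brightest probe set. Zfp568, which represses a placental transcript of Igf2, was the brightest and read 11.17 and 11.25 in the control and 11.34 and 11.42 in the knock-down. For Zfp445, a keeper of imprinted loci, the levels were 10.87 and 10.82 against 11.01 and 10.96. Zfp809, which silences retroviruses through their primer binding site, changed by 0.07. Zfp819 had a change of -0.26 (limma, adjusted p = 0.137). Zfp57, the best known of the imprint keepers and numbered outside the range, fell from 8.13 and 8.13 to 7.53 and 7.65 (limma, adjusted p = 0.00773).

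Among 6 developmental genes, Zfp423 and Zfp503 rose and Zfp536 fell. Zfp423, a partner of Ebf and Smad factors in adipocyte and hindbrain development, read 6.77 and 6.79 in the control and 7.72 and 7.63 in the knock-down, a change of 0.90. Zfp503, expressed in the embryonic striatum and hindbrain, rose at both of its probe sets. The brighter went from 4.97 and 5.22 to 5.69 and 5.56, and the dimmer from 4.17 and 4.31 to 5.87 and 5.81, a change of 1.60. These levels were below the array median in the control. Zfp521, an antagonist of Ebf factors, had a change of -0.31, Zfp703 one of -0.13, and Zfp750, a regulator of epidermal differentiation, one of 0.45, and these 3 did not pass. The dimmer probe set of Zfp521 had a change of 0.275 and did not pass.

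Of 4 genes in RNA metabolism, 1 passed at its brightest probe set. Zfp326, a subunit of the DBIRD complex that couples elongation with splicing, rose from 8.73 and 8.65 to 9.63 and 9.41, a change of 0.83 (limma, adjusted p = 0.00398). Zfp830 and Zfp638 had changes of 0.30 and 0.23. A dimmer probe set of Zfp638 rose by 0.355 (limma, adjusted p = 0.0267), and its remaining ones did not pass. Of 3 genes tied to p53 or DNA damage, Zfp365, a guard of genome stability, rose by 0.73, and Zfp346, which binds double-stranded RNA, rose by 0.38. The third, Zfp385a, a p53 partner, had a change of 0.06. Dimmer probe sets of Zfp365 and Zfp346 had changes of 0.145 and 0.085 and did not pass. Zfp451, a SUMO ligase, rose by 0.31, whereas the ribosome factors Zfp598, which marks collided ribosomes, and Zfp622, which acts on the large subunit, had changes of -0.07 and -0.11 and did not pass. Zfp384 rose by 0.42. Zfp706 was also on the list and is not reported, since none of its probe sets carried its symbol alone.

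**Figure D4:**
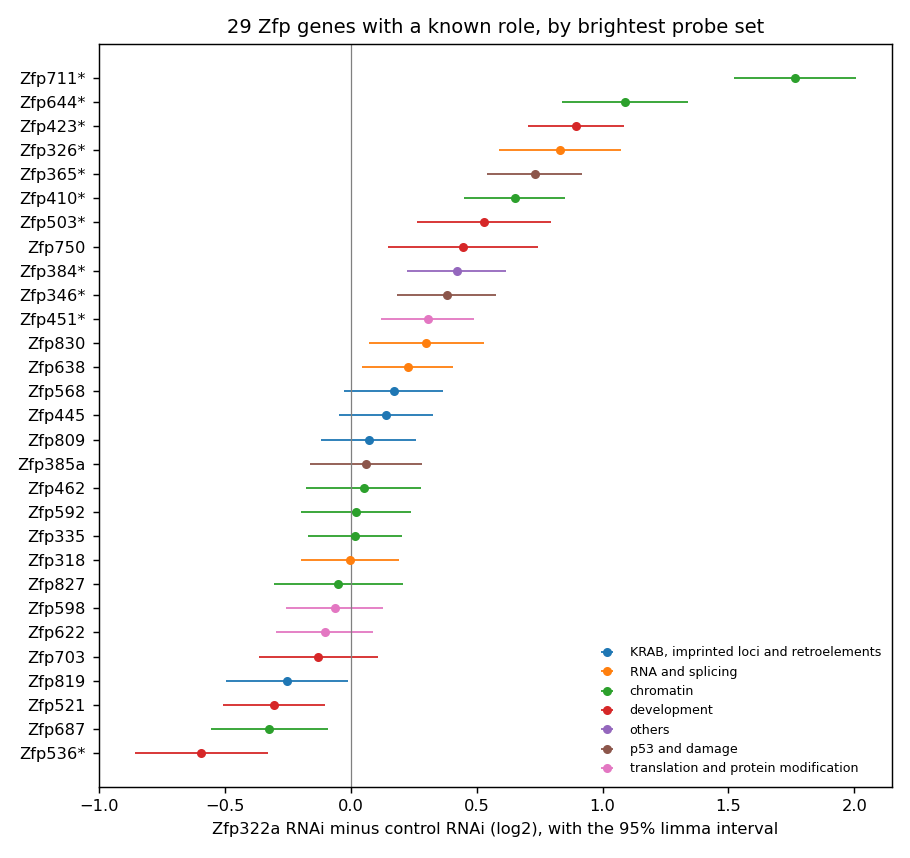
Log2 change upon Zfp322a knock-down (x) with its 95% limma interval for the 29 measured Zfp genes with a known role (y), by brightest probe set and coloured by role. Stars mark the genes past the adjusted p of 0.05: 10 to the right of 0 and Zfp536 to the left.

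Probe sets of a gene often told different parts of the story. Of 116 genes with more than 1 probe set, 62 had at least 1 that passed, and in 9 of these every probe set moved the same way. The 7 that rose throughout were Zfp354c, Zfp386, Zfp503, Zfp560, Zfp617, Zfp790 and Zfp949, and the 2 that fell throughout were Zfp322a and Zfp553. In 52 genes some probe sets passed and others did not. Over all 233 genes, 66 had at least 1 rise and no fall, and 24 had at least 1 fall and no rise. The counts in this paragraph have no share over all genes beside them. They describe the probe sets of these genes and do not set the family against the array.

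Zfp507 was the 1 gene with a rise and a fall. Its brighter probe set read 8.68 and 8.79 in the control and 9.33 and 9.28 in the knock-down, a change of 0.57 (limma, adjusted p = 0.00661). The dimmer went from 6.35 and 6.51 to 5.60 and 5.50, a change of -0.88 (limma, adjusted p = 0.00270). Where the probes of each lie in the transcript was not analysed here.

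In several genes the brightest probe set hid a fall at dimmer ones. Zfp318, known for its part in the processing of immunoglobulin transcripts in B cells, had a change of -0.01 at its brightest probe set. A dimmer one went from 8.36 and 8.19 to 7.21 and 7.24, a change of -1.05 (limma, adjusted p = 0.00177), and 2 more fell by 0.62 and 0.30 on the log2 scale. Zfp462, which works with G9a, GLP and heterochromatin proteins, read 10.06 and 9.92 against 10.11 and 9.97 at its brightest probe set. The next went from 9.84 and 9.84 to 9.11 and 9.19, a change of -0.69 (limma, adjusted p = 0.00330). At Zfp445 the dimmest of 3 probe sets went from 8.35 and 8.45 to 7.61 and 7.50, a change of -0.85 (limma, adjusted p = 0.00252), and the middle one had a change of -0.41. The dimmer probe set of Zfp568 fell by 0.32 on the log2 scale (limma, adjusted p = 0.0456).

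The reverse also occurred, with rises larger at a dimmer probe set. Zfp560 went from 9.89 and 9.89 to 10.52 and 10.51 at the brighter, and from 6.36 and 6.24 to 8.07 and 7.92 at the dimmer, changes of 0.63 and 1.70. Zfp451 rose by 1.27 at a probe set that read 6.54 and 6.40 in the control. Zfp800, with 7 probe sets, rose at 2 of them, by 0.86 and 1.04, and the other 5 did not pass. Zfp560 and Zfp800, and the dimmer probe sets in this and the preceding paragraph, were picked with their values in view.

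Zfp genes lie in clusters, and 5 neighbourhoods held at least 6 member genes with at most 2 other protein-coding genes between neighbours, by gene order in RefSeq (GRCm38.p6). Neighbourhoods were drawn after the values had been seen. Among their 44 genes 11 rose and 0 fell in limma (25% rose), and among the 186 placed genes outside 48 rose and 14 fell (25.8% rose). The median change was 0.19 inside and 0.08 outside, and the difference between the groups of genes was not tested.

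The neighbourhood from Zfp948 to Zfp946 on chromosome 17 had the most rises, 5 of 11 genes. By brightest probe set, 25.3% of the member genes and 12.2% of all genes rose. At their brightest probe set all 11 had a change above 0, from 0.04 to 1.04, with a median of 0.47. Counted by probe set and not by gene, 251 of 420 members and 19543 of all 45037 had a change above 0. Besides Zfp948 and Zfp758, Zfp946 went from 7.15 and 7.09 to 8.09 and 7.77, Zfp943 from 6.98 and 7.04 to 7.77 and 7.56, and Zfp942 from 7.96 and 7.71 to 8.54 and 8.19. The changes were 0.81, 0.66 and 0.53, and the adjusted p of Zfp942 in limma was 0.0494. Zfp995 had a change of 0.47, with arrays at 8.93 and 8.59 against 9.38 and 9.07, and did not pass. Zfp983 sat between 5.55 and 5.61 on all 4 arrays. Dimmer probe sets went below 0 at Zfp948 (-0.31), Zfp983 (-0.28), Zfp942 (-0.095), Zfp944 (-0.06) and Zfp943 (-0.01), and none of these passed.

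**Figure D5:**
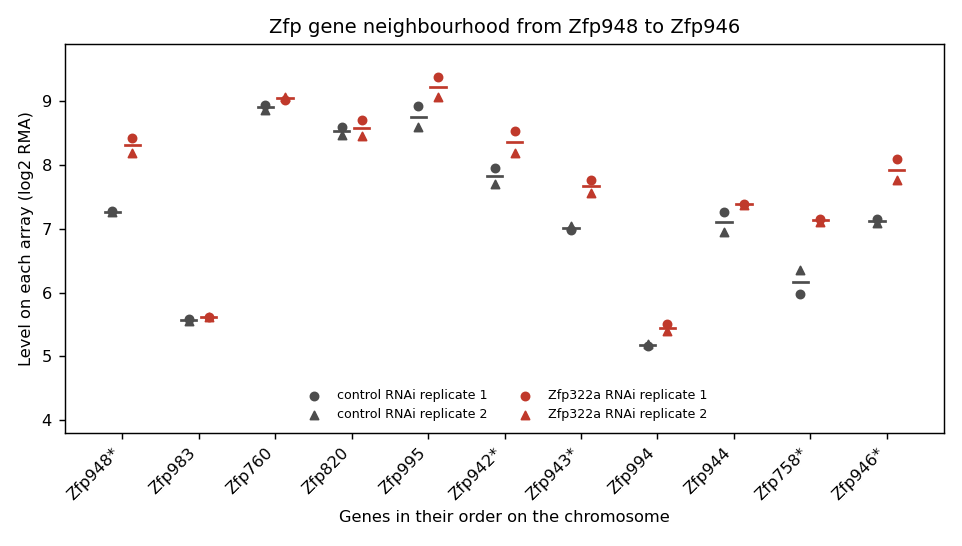
Level on each array (y, log2 RMA) of the 11 Zfp genes from Zfp948 to Zfp946 in chromosome order (x), by brightest probe set; ticks are group means and stars mark the 5 genes that rose in limma. Zfp948, Zfp943, Zfp758 and Zfp946 show a clear gap between control and knock-down, whereas Zfp983 does not.

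Some start regions in this neighbourhood are near copies of each other. Among 55 pairs of the 11 promoters, 300 bases around each start site from RefSeq (GRCm38.p6), Zfp943 and Zfp758 had 292 identical bases (97.3%) and Zfp942 and Zfp944 had 274 (91.3%). The next pair had 65.3% and the median pair 44.0%. Zfp942 runs on the minus strand and its window shares 194 bases with that of Zfp943 on the plus strand, so that the pair starts back to back. Zfp944 on the minus strand likewise shares 162 bases with Zfp758 on the plus strand. The near-copy pairs are thus not independent of each other. The windows of Zfp943, chr17:21962309-21962608, and Zfp758, chr17:22361213-22361512, both on the plus strand, are shown as the most alike pair. Bases that are not aligned between them are in capitals, 8 in each window. In Zfp943, 1 of them lies inside the aligned stretch and the others at the end, and in Zfp758 all lie at the start.
Zfp943: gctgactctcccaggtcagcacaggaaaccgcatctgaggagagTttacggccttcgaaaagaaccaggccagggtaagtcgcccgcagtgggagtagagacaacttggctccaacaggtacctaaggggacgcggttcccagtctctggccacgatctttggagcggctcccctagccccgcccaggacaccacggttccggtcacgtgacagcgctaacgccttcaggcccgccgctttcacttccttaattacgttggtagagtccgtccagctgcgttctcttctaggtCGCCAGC
Zfp758: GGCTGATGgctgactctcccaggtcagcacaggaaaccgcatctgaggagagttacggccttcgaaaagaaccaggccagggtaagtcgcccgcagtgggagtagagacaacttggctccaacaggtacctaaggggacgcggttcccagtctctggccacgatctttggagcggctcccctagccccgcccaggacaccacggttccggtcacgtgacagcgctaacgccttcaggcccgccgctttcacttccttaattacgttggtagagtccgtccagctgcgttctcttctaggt

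Zfp943 and Zfp758 thus had nearly the same start sequence, and they rose by 0.66 and 0.97. A link between this likeness and the rises was not tested. Zfp942 rose and its near copy Zfp944, whose window overlaps that of Zfp758, did not pass at any of its 3 probe sets. Whether probes of one copy also catch the other was not tested, since the probe sequences were not used here, so that values of such near copies are uncertain.

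Promoters of 190 of the 233 genes were found in the RefSeq table. Each gene was read by its promoter with the most CpG. Member promoters were richer in CpG than promoters at large, with a median of 16 CpG in 300 bases beside 8 over 27025 genes. Those 27025 are all genes of the RefSeq table with a promoter, not only those on the array. The median was 16 in the 52 of them that rose, 16 in the 128 that did not pass and 22.5 in the 10 that fell.

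The partners of KRAB proteins moved in both directions. Of 25 listed co-repressors and partners 23 were measured, and by brightest probe set 5 rose, 4 fell and 14 did not pass, with a median change of -0.04. Over all genes read in this way, 12.2% rose and 11.5% fell, and a list this short was not compared with them by a test. Trim28, the common co-repressor, read 13.24 and 13.34 in the control and 13.09 and 13.20 in the knock-down and did not pass (limma, adjusted p = 0.307). Its other probe set went from 12.67 and 12.77 to 12.44 and 12.41, a fall just past the threshold (limma, adjusted p = 0.0496). Setdb1 had a change of 0.23 and did not pass. Tasor, of the HUSH silencing complex, rose from 9.09 and 9.21 to 10.18 and 10.11, or 1.99-fold. Smarcad1, a remodeller that binds Trim28, rose from 10.02 and 10.03 to 10.94 and 10.96. Dnmt3a, a de novo DNA methyltransferase, rose by 0.47. Ehmt2, which is G9a, fell by 0.46 on the log2 scale at its brighter probe set. Its dimmer probe set had a change of -0.17 and did not pass. Uhrf1, which helps to keep DNA methylation, fell by 0.45 on the log2 scale.

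Zinc finger genes with a known place in ES cells, outside the numbered range, were split as well. Of 14 listed 12 were measured, with 2 rises, 2 falls and 8 that did not pass at the brightest probe set. Rest, the repressor of neuronal genes, fell from 11.74 and 11.77 to 10.98 and 10.87 at its brightest probe set, but the other 3 did not pass, and the next brightest had a change of -0.11. Zfp57 fell as above. Zfx, a self-renewal factor, rose by 0.65. Yy1, a widely expressed zinc finger factor, rose by 0.35 at its brightest probe set and fell by 0.75 on the log2 scale at the next, which went from 9.29 and 9.47 to 8.58 and 8.69 (limma, adjusted p = 0.00472), and its other 2 probe sets did not pass. Zfp42, a marker of the undifferentiated state, had a change of 0.06.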

How the data were processed

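RNA levels in 4 E14 mouse ES cell samples were measured on 1-colour Affymetrix MG430 2.0 arrays. The authors processed the arrays with RMA, and deposited log2 levels between 2.62 and 14.61. The version of RMA is not stated. RMA makes array quantiles alike and so would hide a shift common to all genes. The number of arrays limits the precision. Selection lasted 3 days per the labels; the methods give a longer one for arrays.

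Groups and replicate numbers came from the titles. The platform annotation gave 34945 probe sets 1 symbol, 932 several and 9160 none. All 233 member genes matched RefSeq by Entrez ID. The groups were compared with limma 3.58.1 under R 4.3.3 (functions lmFit and eBayes, with the group alone, two-sided, on 2 residual degrees of freedom). P-values were adjusted by Benjamini-Hochberg over all 45037 probe sets, or over 18193 genes by brightest probe set, with a threshold of 0.05. For 1 gene, the smallest exact permutation p is 0.333. Limma was tested on simulated data. Named genes were both Zfp322a probe sets, the 10 largest rises and falls by brightest probe set with groups not overlapping, genes with a known role, genes with probe sets in conflict, and up to 4 called genes per list of other genes by lowest p; a few more were named after their values were seen. Members and lists were chosen with earlier results of these data known. Alternatives changed the centring, quantile normalization, variance moderation, dim and cross-hybridising probe sets, the probe set of a gene, the fold threshold, a replicate block and the arrays used. Protein features and hairpin matches to transcripts were planned and not analysed here, for lack of protein and transcript tables.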

Additional observations from a re-analysis of the deposited data

How the results depend on the processing

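With 2 arrays per group, the calls needed all 4 arrays. Leaving out any 1 array (the single array left in a group is assumed to vary like the other group) gave 0 higher and 0 lower of the member probe sets and of the member genes past the adjusted p in limma, and 0 over all probe sets. At an unadjusted p under 0.05, 77 to 114 member probe sets were higher and 39 to 44 lower. The Zfp322a changes then lay between -1.67 and -1.27 and between -1.97 and -1.78, with adjusted p of 0.110 to 0.145. The median change was 0.06 to 0.07, and 35 to 60 probe sets were over 1.5-fold higher and 10 to 12 lower. Deviations of same-numbered arrays correlated at 0.06 over 2 pairs. With so few pairs this cannot show whether the replicate numbers pair the samples. With the number as a replicate block, 0 member probe sets rose and 0 fell (114 and 60 at an unadjusted p under 0.05), 43 member genes rose and 9 fell, and Zfp322a kept its changes of -1.47 and -1.87 with adjusted p of 0.0523 and 0.0513. At 2-fold, 10 probe sets were higher and 3 lower, and with both knock-down arrays 1.5-fold beyond both controls 6 were lower (29 higher). The block and fold counts have no share over all probe sets or genes beside them. They therefore do not set the family against the array. The Zfp451 call ended with quantile normalization (0.25, adjusted p = 0.0649).

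Changes near 0 that had not passed took the other sign: with centring Zfp318 (0.025), and with quantile normalization Zfp335 (-0.005), Zfp462 (-0.00625) and Zfp592 (-0.0031). Without 1 array, Zfp318 lay between -0.055 and 0.045, Zfp335 between -0.015 and 0.045, Zfp385a between -0.015 and 0.135, Zfp462 between -0.02 and 0.12, Zfp592 between -0.065 and 0.105 and Zfp827 between -0.18 and 0.08. Under the other alternatives the counts of calls stayed within 1.5 times: 78 to 106 probe sets rose and 25 to 38 fell. Shares over all probe sets under these alternatives are not given here.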
